A study of Mus musculus with 15 samples.

Results

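The inflammatory cytokines and chemokines described here are 10 genes: the cytokines Tnf, Il1a, Il1b, Il6 and Il18, the CC chemokines Ccl2, Ccl3 and Ccl5, and the CXC chemokines Cxcl10 and Cxcl12. They were chosen by gene symbol in the array's annotation, and every array feature (spot) of each was taken. They hold 58 features, of which 48 carry values, and they are 10 of the 16401 named genes measured in the series. Whole hippocampus of adult female mice was profiled on 15 1-colour arrays in 3 groups of 5, namely SAMP8 mice that had exercised, SAMP8 mice kept sedentary, and SAMR1 mice kept sedentary. SAMP8 is a senescence-accelerated inbred mouse line known for early memory loss, and SAMR1 is the related senescence-resistant line used as its control. The comparison of the lines is thus one of inbred strains that can differ at many loci, and no exercised SAMR1 group was analysed here. The kind and duration of exercise and the age in months are not stated in the labels. Arrays are numbered as biological replicates, but whether a number stands for 1 animal is not stated, so p-values describe the spread between these samples.

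The products of Tnf, Il1a, Il1b and Il6 start and amplify inflammation, and in the brain activated microglia are a main source of them. Their transcription is driven in large part by the factor NF-kappaB. Il18, a relative of Il1b, is made as an inactive precursor that caspase-1 cleaves inside inflammasomes. Chemokines attract cells along gradients: Ccl2 draws monocytes through the receptor Ccr2, Ccl3 and Ccl5 draw several kinds of leukocyte, and Cxcl10, a gene induced by interferons, draws activated T cells through Cxcr3. Cxcl12 differs in being made constitutively, and through its receptor Cxcr4 it guides migrating cells, including neural progenitors of the dentate gyrus.

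Promoters of 8 of the 10 genes were matched in the RefSeq table of build GRCm38.p6, with no entry for Ccl2 and Ccl5. The 250 bases before the start of transcription are shown for the 2 genes above the background of the arrays, Il18 and Cxcl12, and for the 2 genes, both near background, whose windows held an NF-kappaB match, Cxcl10 and Il6. Capitals mark matches, on either strand, to the core of the interferon-stimulated response element (ISRE), the NF-kappaB consensus, the AP-1 site (TGANTCA) and the TATA box (TATAAA). The windows are Cxcl10 at chr5:92348890-92349139 (minus strand), Il6 at chr5:30012864-30013113 (plus strand), Il18 at chr9:50554450-50554699 (plus strand) and Cxcl12 at chr6:117168285-117168534 (plus strand).
Cxcl10: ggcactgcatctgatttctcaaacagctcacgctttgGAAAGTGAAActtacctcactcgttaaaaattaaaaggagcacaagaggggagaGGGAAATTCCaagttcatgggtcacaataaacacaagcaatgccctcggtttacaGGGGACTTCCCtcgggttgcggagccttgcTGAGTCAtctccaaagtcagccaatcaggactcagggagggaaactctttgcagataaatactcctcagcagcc
Il6: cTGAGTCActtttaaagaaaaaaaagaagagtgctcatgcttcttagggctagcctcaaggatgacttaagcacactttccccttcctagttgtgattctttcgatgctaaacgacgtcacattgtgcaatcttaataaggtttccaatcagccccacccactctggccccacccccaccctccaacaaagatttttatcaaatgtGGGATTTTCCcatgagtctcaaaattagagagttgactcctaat
Il18: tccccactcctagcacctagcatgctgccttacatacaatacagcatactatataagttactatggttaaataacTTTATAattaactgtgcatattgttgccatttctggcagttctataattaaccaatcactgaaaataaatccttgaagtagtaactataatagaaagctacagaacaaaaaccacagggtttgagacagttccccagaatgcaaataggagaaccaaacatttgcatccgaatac
Cxcl12: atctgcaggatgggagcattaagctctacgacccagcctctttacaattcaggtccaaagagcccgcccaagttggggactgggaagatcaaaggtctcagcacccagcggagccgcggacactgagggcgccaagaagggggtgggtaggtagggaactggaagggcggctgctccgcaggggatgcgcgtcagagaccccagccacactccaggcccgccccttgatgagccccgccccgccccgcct

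The Cxcl10 window held 1 ISRE core from base -213 to -204 (counted from the start site), NF-kappaB matches from -159 to -150 and, overlapping each other, from -104 to -95 and -103 to -94, and an AP-1 match from -74 to -68. The Il6 window held an NF-kappaB match from -44 to -35 and an AP-1 match from -249 to -243. The Il18 window held none of these and only a TATA box from -175 to -170 on the opposite strand, and the Cxcl12 window held no match to any of the motifs. The windows not shown, those of Tnf, Il1a, Il1b and Ccl3, belong to genes that also lay near background, and none held an ISRE core or an NF-kappaB match. Ccl3, like Cxcl12, had no match to any motif, so the matches did not separate the dim genes from the measured ones. Among the 8 windows of these genes, 1 held the ISRE core, 2 the NF-kappaB consensus, 3 the AP-1 site and 4 the TATA box. Among all 32851 promoter windows in the table the shares were 2.98%, 7.25%, 6.75% and 12.4% in that order. A match describes the letters only and shows neither binding nor a cause.

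As a yardstick for background, the probes of olfactory receptor genes, which serve the nose, were used: the 95th percentile of their values, an intensity of 171.6, was taken as the limit at or under which a value is called near background. It rests on the 476 of 976 olfactory features that carry values, so it may be set high. A lower limit, the 20th percentile of all values on the arrays (63.65), was set beside it. Intensities are linear, in arbitrary units, and were nearly the same in distribution on every array, with array medians of 207.75 to 208.67. Of the hippocampal markers, 15 of 15 neuronal, 10 of 10 astrocyte and 13 of 16 microglial genes lay above the limit on at least 8 of the 15 arrays. So did 13 of 13 genes of meninges and fibroblasts and 7 of 9 of the choroid plexus, which border the hippocampus, against 3 of 11 of monocytes and macrophages, 1 of 12 of lymphocytes and 0 of 5 of neutrophils.

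Of the 10 genes, 8 lay near background in the hippocampus of all 3 groups and 2, Il18 and Cxcl12, were clearly above it. Of the 48 features with values, 34 were near background on all 15 arrays, 12 were above the limit on all 15, and 2 passed it on a single array each. The 12 were the 10 features of Il18 and the 2 of Cxcl12. The 2 that passed once were 1 feature of Ccl5, in an exercised SAMP8 hippocampus, and the Cxcl10 feature, in a sedentary SAMP8 hippocampus. A further 10 features, 9 of the 10 of Il6 and 1 of the 2 of Il1a, were empty on every array. At the lower limit 13 features lay at or above it on all 15 arrays, the same 12 and the brighter Ccl5 feature.

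**Figure D1:**
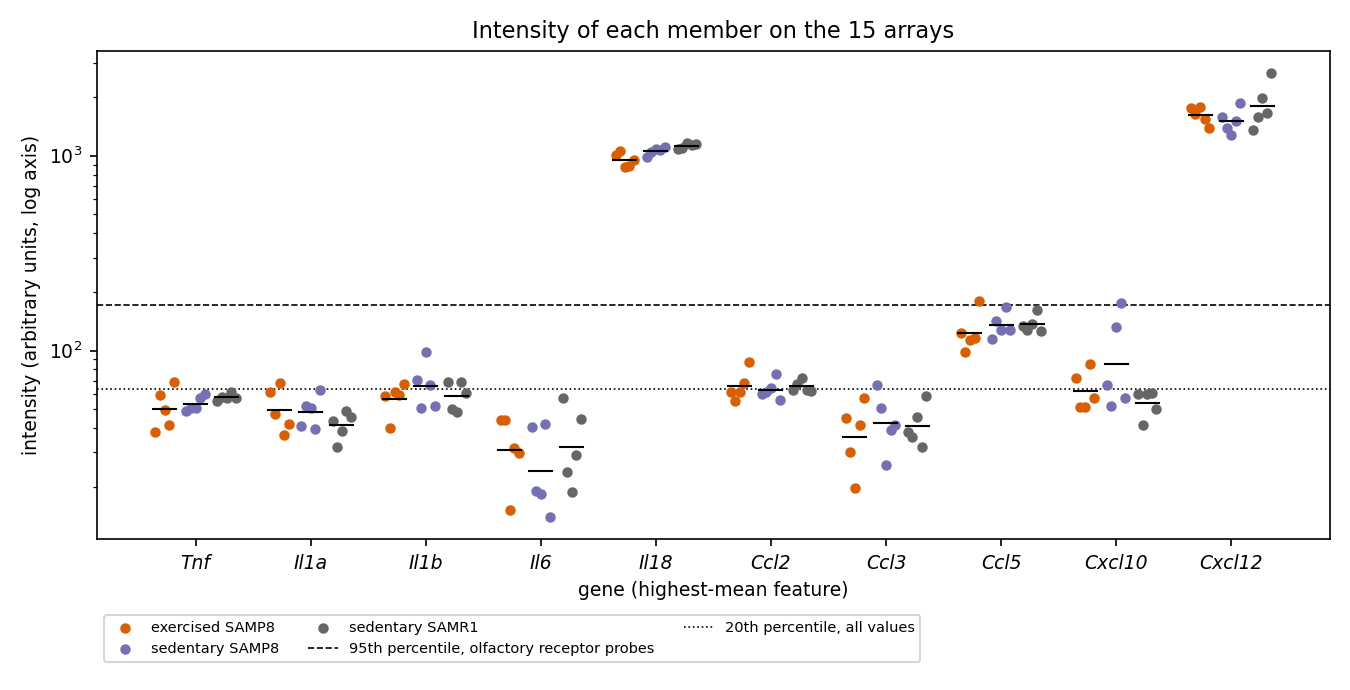
Intensity (arbitrary units, log axis) of the feature with the highest mean of each of the 10 genes in exercised SAMP8, sedentary SAMP8 and sedentary SAMR1 hippocampus (5 arrays each). Points are arrays, short lines are geometric means, and the dashed and dotted lines are the limits of 171.6 and 63.65. Il18 and Cxcl12 lie above the dashed line on every array, and 1 point each of Ccl5 and Cxcl10 crosses it.

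Across all 3 comparisons, none of the 10 genes passed the test. Each gene was tested with limma on log2 intensity in a fit of all 16401 genes over the 15 arrays, with Benjamini-Hochberg adjustment over all of them, and a gene was called at an adjusted p under 0.05. For exercised minus sedentary SAMP8, 0 of 10 genes were called, where limma called 0 of all genes (0%), and 0 of 10 against 3.49% of all genes had an unadjusted p under 0.05. For sedentary SAMP8 minus SAMR1, 0 of 10 were called, against 2.63% of all genes (431, or 648 with the replicate number as a block in a fit of the 2 groups alone), and 1 of 10, Cxcl10, had an unadjusted p under 0.05, against 11.2%. For exercised SAMP8 minus SAMR1, 0 of 10 were called, against 3.6% of all genes (590), and 1 of 10, Il18, had an unadjusted p under 0.05, against 15.9%. The 2 comparisons with SAMR1 share the SAMR1 arrays. Tested feature by feature, 0 of the 48 were called in any comparison, with 2, 3 and 5 of them at an unadjusted p under 0.05 in the order above. The shares of all features called were 0%, 2.45% and 3.78%, and the shares at an unadjusted p under 0.05 were 3.66%, 10.9% and 15.8%.

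**Figure D2:**
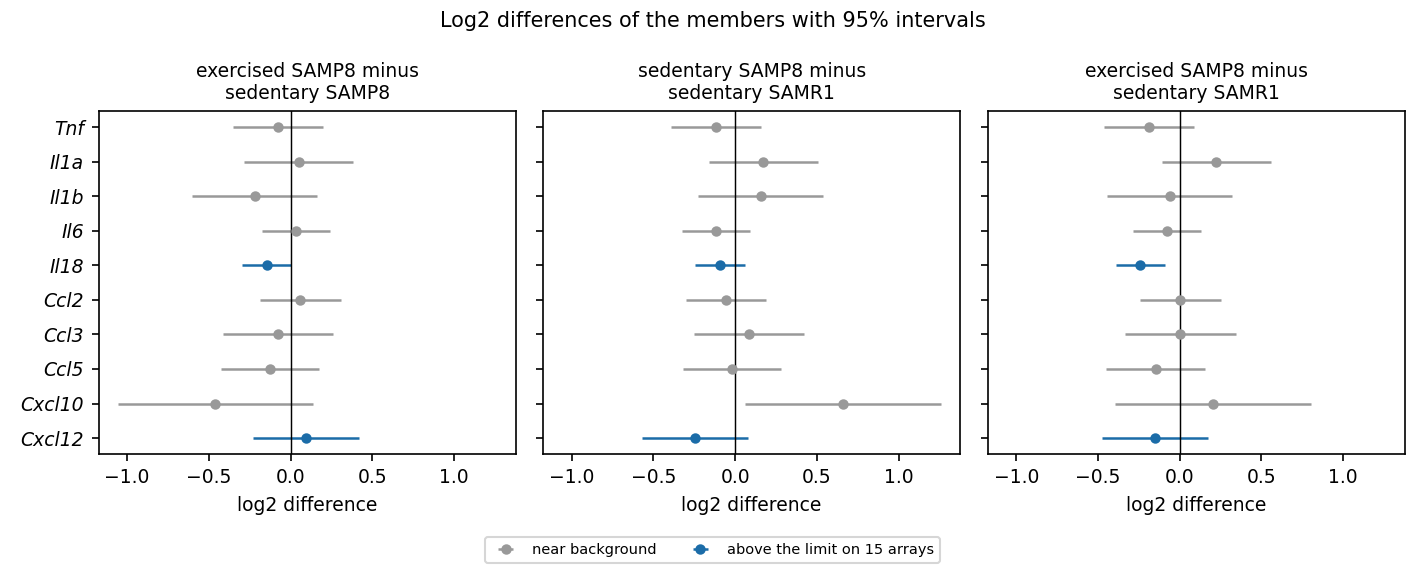
Log2 difference (points) with 95% interval (bars) of each of the 10 genes for exercised minus sedentary SAMP8, sedentary SAMP8 minus SAMR1 and exercised SAMP8 minus SAMR1, 5 arrays a group. Blue marks Il18 and Cxcl12, which lay above the background limit on all 15 arrays. The interval leaves out 0 for Cxcl10 in the middle panel and for Il18 in the right panel, and neither difference passed after adjustment.

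Il18 was the one inflammatory cytokine of the 10 that was measured well above background, and its intensity was lowest in exercised SAMP8 and highest in SAMR1. On its brightest feature, replicates 1 to 5 of exercised SAMP8 had intensities of 1005, 1054, 874, 890 and 952. Sedentary SAMP8 had 984, 1042, 1079, 1067 and 1107. SAMR1 had 1084, 1097, 1165, 1135 and 1148. The group means were 955 ± 75.9, 1056 ± 46.3 and 1126 ± 34.5 in that order (SD, n = 5 each). On this feature every exercised SAMP8 array lay under every SAMR1 array, while sedentary SAMP8 overlapped both. The share of all genes without overlap was not counted, either for this comparison or for the genes and lists described below.

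Exercised SAMP8 had -0.24 ± 0.07 (log2 difference ± SE) of Il18 relative to SAMR1, 0.847 of its level, with a 95% interval from 0.762 to 0.941. This difference did not pass (limma, unadjusted p = 0.00402, adjusted p = 0.0815). Over the alternative settings tried the adjusted p ran between 0.0162 and 0.366, and it passed under 1 of them, a higher floor on low intensities. Every Il18 value lay above that floor, so the difference stayed at -0.24 and only its SE changed, to 0.05. For exercised minus sedentary SAMP8 the log2 difference was -0.15 ± 0.07 (95% interval -0.30 to 0.0047, adjusted p = 1). For sedentary SAMP8 minus SAMR1 it was -0.09 ± 0.07 (-0.24 to 0.06, adjusted p = 0.735). Neither difference between neighbours in the order of the groups passed, and both intervals included 0. For exercised minus sedentary SAMP8 the margin was narrow (limma, unadjusted p = 0.0567).

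The 10 features of Il18 leaned the same way. Exercised SAMP8 was lower than SAMR1 on 10 of 10 features, by log2 differences between -0.24 and -0.07, of which 4 had an unadjusted p under 0.05 and none passed after adjustment (lowest adjusted p = 0.0903). Exercised SAMP8 was lower than sedentary SAMP8 on 10 of 10, by log2 differences between -0.15, on the brightest feature, and -0.0078, and sedentary SAMP8 lower than SAMR1 on 9 of 10. The features read the same 15 hybridisations and the annotation does not say whether they carry the same oligonucleotide, so they are not replicates of a condition. Averaged over the 10 features, the arrays of exercised SAMP8 had 820, 864, 826, 746 and 780. Those of sedentary SAMP8 had 878, 832, 848, 807 and 861, and those of SAMR1 had 871, 877, 995, 835 and 950. On this average the exercised SAMP8 and SAMR1 groups overlapped, and their log2 difference was -0.17 ± 0.07 (limma, adjusted p = 0.234). For exercised minus sedentary SAMP8 the average gave -0.07 ± 0.07 (95% interval -0.21 to 0.07, adjusted p = 1), and for sedentary SAMP8 minus SAMR1 -0.10 ± 0.07 (adjusted p = 0.696).

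**Figure D3:**
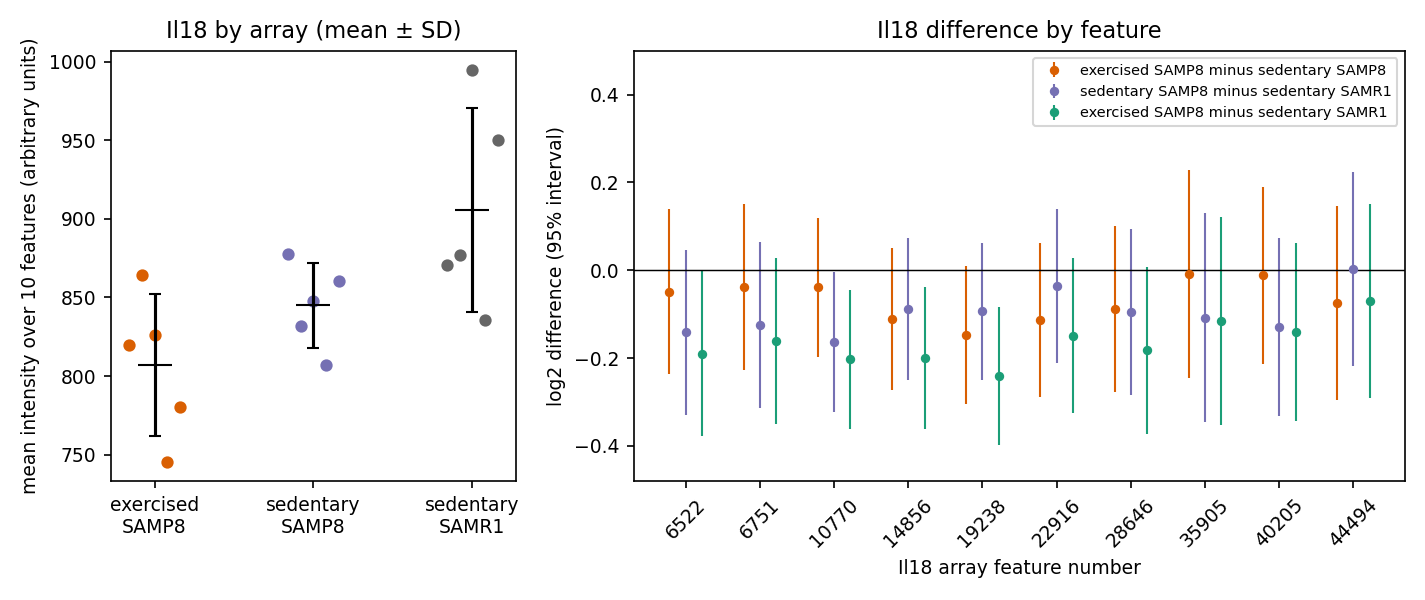
Left, the geometric mean intensity of Il18 over its 10 features on each array (arbitrary units) in exercised SAMP8, sedentary SAMP8 and SAMR1, with the mean ± SD of the 5 arrays. Right, the log2 difference of each Il18 feature with its 95% interval in the 3 comparisons. The exercised SAMP8 minus SAMR1 differences all lie under 0, between -0.24 and -0.07.

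The scatter between repeated features of a gene was set beside the spread between arrays. It does not hold effects that all features of an array share, so it does not tell samples from hybridisations. The mean of the 10 Il18 features had an SD of 0.0803 between arrays of a group on the log2 scale, against 0.0302 expected from the scatter between features alone. For Tnf, which had 10 features near background, the same values were 0.0839 and 0.082, about equal. For Il1b they were 0.134 and 0.0794, and for Ccl2 0.118 and 0.064.

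Beside the Il18 values, the mean log2 level of 10 astrocyte markers was 11.928 to 11.975 in exercised SAMP8, 11.926 to 12.122 in sedentary SAMP8 and 12.002 to 12.073 in SAMR1, so that exercised SAMP8 and SAMR1 did not overlap there either. The mean of 16 microglial markers was 9.29 to 9.36 in exercised SAMP8, 9.29 to 9.35 in sedentary SAMP8 and 9.14 to 9.46 in SAMR1. No gene of either list was called in any comparison (limma, lowest adjusted p of an astrocyte gene in exercised SAMP8 minus SAMR1 0.213 for Slc4a4, a bicarbonate transporter), and their part in the Il18 values was not tested. Since whole tissue was measured, fewer cells of a type and less RNA per cell cannot be told apart. The 3 genes whose levels followed Il18 most closely over the 15 arrays were Dnajc5, a synaptic vesicle chaperone (Pearson r = 0.84), Srebf1, a regulator of lipid synthesis (0.83), and Cct7, a subunit of a cytosolic chaperonin (0.83). Without exercised SAMP8 replicates 3 and 4, the farthest from the median, they were 0.82, 0.60 and 0.74 in that order. These correlations include the differences between groups, and the points share their hybridisation.

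The partners of Il18 and Il1b in processing were measured in part, 8 of 11 listed genes, 4 of them above the limit on at least 8 arrays. Among them Pycard, the adaptor that joins inflammasome sensors to caspase-1, was lower in sedentary SAMP8 than in SAMR1. Its intensities were 294, 320, 268, 370 and 326 in sedentary SAMP8 and 514, 417, 419, 434 and 433 in SAMR1, with no overlap. The log2 difference was -0.49 ± 0.12 (limma, adjusted p = 0.0372). With the replicate number as a block over all 15 arrays the adjusted p was 0.06, while with the block in a fit of the 2 groups alone the call held. The difference also missed the threshold with the higher floor (adjusted p = 0.0521). It missed it too without any 1 of 9 of the 10 arrays compared, with adjusted p up to 0.114. In exercised SAMP8 Pycard had 274, 282, 366, 319 and 425, a log2 difference of -0.43 ± 0.12 from SAMR1 (adjusted p = 0.0663). That difference was called under 6 of 27 alternatives. With the mean of all features of Pycard it was -0.64 (adjusted p = 0.00078, and 0.0341 with the replicate block in a fit of the 2 groups alone), and the difference of sedentary SAMP8 from SAMR1 was then -0.69 (adjusted p = 0.000392). Casp1, named here as the protease that cleaves both precursors, had a log2 difference of 0.39 ± 0.17 in exercised SAMP8 minus SAMR1 (adjusted p = 0.273).

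The 4 remaining cytokines, Tnf, Il1a, Il1b and Il6, were near background on all 15 arrays, and no fold is given for them. On its brightest feature Tnf had 38.2, 58.8, 49.6, 41.4 and 69.2 in exercised SAMP8, against 48.7, 50.5, 51.0, 56.9 and 59.6 in sedentary SAMP8 and 54.8, 57.5, 57.3, 61.5 and 56.9 in SAMR1. The groups overlapped, and of the 150 Tnf values over 10 features 140 (93.3%) lay under the lower limit of 63.65. Il1b had 58.4, 40.03, 61.4, 58.9 and 67.0 in exercised SAMP8, against 70.5, 50.5, 98.2, 66.5 and 52.0 in sedentary SAMP8 and 69.2, 50.4, 48.1, 68.6 and 60.9 in SAMR1. Its highest value of 98.2 was on 1 sedentary SAMP8 array, the groups overlapped, and 131 of 150 values (87.3%) lay under the lower limit. Il1a lay between 31.8 and 68.4 on its 1 feature with values, and Il6 between 13.98 and 56.9, all 15 Il6 values being under the lower limit.

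The fitted log2 differences of these cytokines had no common direction. For exercised minus sedentary SAMP8 they were -0.08 for Tnf, 0.05 for Il1a, -0.22 for Il1b and 0.04 for Il6, with standard errors between 0.10 and 0.18. For sedentary SAMP8 minus SAMR1 they were -0.11, 0.17, 0.16 and -0.12 in the same order. For Tnf the direction also differed between its features: in exercised minus sedentary SAMP8, 7 features were higher and 3 lower, and of the Il1b features 3 were higher and 7 lower. Values under an intensity of 39.17 were set to that floor before log2. Without the floor the Il6 differences were 0.35 in exercised minus sedentary SAMP8 and -0.40 in sedentary SAMP8 minus SAMR1, and neither passed (adjusted p = 1 and 0.799). No difference in the RNA of these 4 genes passed at this signal over background, which is not evidence that differences were absent.

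The 3 CC chemokines were dim as well. Ccl2, with 10 features, lay between 21.4 and 87.7, and 117 of its 150 values (78%) were under the lower limit. Ccl3, with 1 feature, lay between 19.6 and 66.4. The brighter feature of Ccl5 had 123, 97.9, 113, 116 and 179 in exercised SAMP8, against 115, 142, 128, 167 and 127 in sedentary SAMP8 and 133, 128, 138, 162 and 126 in SAMR1. It was the only feature of these 3 genes at or above the lower limit on every array, and its groups overlapped, with the highest value in 1 exercised SAMP8 hippocampus. Its other feature, annotated to another transcript record, lay near background on all arrays, at 29.6 at the lowest.

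For exercised minus sedentary SAMP8 the log2 differences were 0.06 ± 0.12 for Ccl2, -0.08 ± 0.16 for Ccl3 and -0.13 ± 0.14 for Ccl5, each with an adjusted p of 1. For sedentary SAMP8 minus SAMR1 they were -0.06 ± 0.12, 0.08 ± 0.16 and -0.02 ± 0.14 (adjusted p between 0.930 and 0.985). The 95% interval for Ccl5, the brightest, ran from -0.32 to 0.28 in that comparison. On the mean of its 10 features Ccl2 had a log2 difference of -0.17 ± 0.08 in exercised minus sedentary SAMP8, opposite in sign to its brightest feature, and 9 of its 10 features were lower (adjusted p = 1).

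In mice the genes of Ccl2, Ccl3 and Ccl5 lie on chromosome 11 among other CC chemokine genes, and in the order of the genes tested Ccl9 and Ccl6 stand between Ccl5 and Ccl3. Ccl9 and Ccl6, chemokines of myeloid cells in rodents, were both lower in SAMP8, whereas Ccl5, Ccl3, Ccl4 and the 5 genes from Ccl2 to Ccl8 did not pass. Ccl6 had 105, 97.2, 82.8, 102 and 90.7 in exercised SAMP8, against 99.5, 108, 115, 109 and 90.7 in sedentary SAMP8 and 198, 125, 156, 198 and 141 in SAMR1. Every SAMR1 array was above every SAMP8 array. The log2 difference of sedentary SAMP8 minus SAMR1 was -0.63 ± 0.12 for Ccl6 (limma, adjusted p = 0.00816) and -0.60 ± 0.10 for Ccl9 (adjusted p = 0.00177). In exercised SAMP8 minus SAMR1 they were -0.76 ± 0.12 and -0.47 ± 0.10 (adjusted p = 0.0015 and 0.0116). Ccl9 was at or under the background limit on all 15 arrays and Ccl6 on 13, so no fold is given, and Ccl9 shows that differences under the limit could be called.

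**Figure D4:**
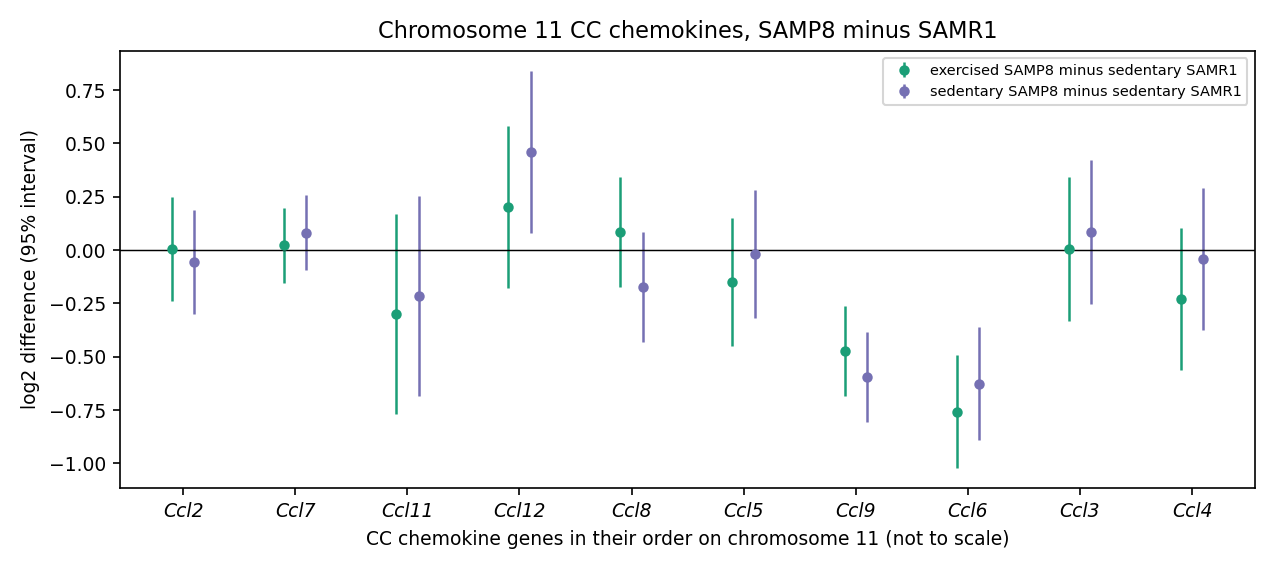
Log2 difference with 95% interval of the 10 CC chemokine genes of chromosome 11 that were tested, in their order along the chromosome (not to scale), for exercised SAMP8 minus SAMR1 and sedentary SAMP8 minus SAMR1. Ccl9 and Ccl6 lie under 0 in both, and the intervals of Ccl2, Ccl5 and Ccl3 include 0 in both.

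Cxcl10, the interferon-induced chemokine, had the largest standard error of the 10 genes (0.28) in the fit of log2 values after the floor. Exercised SAMP8 had 72.1, 51.4, 51.2, 85.5 and 56.9. Sedentary SAMP8 had 66.9, 52.0, 132, 174 and 56.8, and SAMR1 had 59.7, 41.7, 60.1, 60.8 and 50.4. Replicates 3 and 4 of sedentary SAMP8 stood above all other arrays, and the other 3 lay within the range of the exercised SAMP8 arrays.

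The log2 difference of Cxcl10 in sedentary SAMP8 minus SAMR1 was 0.66 ± 0.28 (95% interval 0.06 to 1.26), with an unadjusted p of 0.0325 and an adjusted p of 0.357 (limma), so it did not pass. Without sedentary SAMP8 replicate 4 it was 0.40 (adjusted p = 0.614), and without replicate 3 it was 0.51 (adjusted p = 0.616). In exercised minus sedentary SAMP8 it was -0.46 ± 0.28 (95% interval -1.06 to 0.14, adjusted p = 1), and -0.20 without sedentary SAMP8 replicate 4 and -0.30 without replicate 3. In exercised SAMP8 minus SAMR1 it was 0.20 ± 0.28 (adjusted p = 0.807). All but 1 value lay near background, so no fold is given.

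Over the 15 arrays the levels of 2 interferon-induced genes followed Cxcl10, namely Ifit3 (Pearson r = 0.91, Spearman rho = 0.67) and Ifit1 (0.83 and 0.69), whose proteins act against viral RNA. They were named after their values were seen, and without sedentary SAMP8 replicates 3 and 4 Pearson r was 0.66 for Ifit3 and 0.59 for Ifit1. Ifit3 had 815, 504, 499, 682 and 405 in exercised SAMP8, against 483, 508, 1048, 1214 and 524 in sedentary SAMP8 and 496, 455, 565, 624 and 526 in SAMR1. It was above the background limit on all 15 arrays and was highest on sedentary SAMP8 replicates 3 and 4. Ifit1, like Cxcl10, was near background on all but 1 array, sedentary SAMP8 replicate 3 at 245. In sedentary SAMP8 minus SAMR1 the log2 difference was 0.39 ± 0.25 for Ifit3 (adjusted p = 0.643) and 0.87 ± 0.26 for Ifit1 (adjusted p = 0.102), and neither passed.

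**Figure D5:**
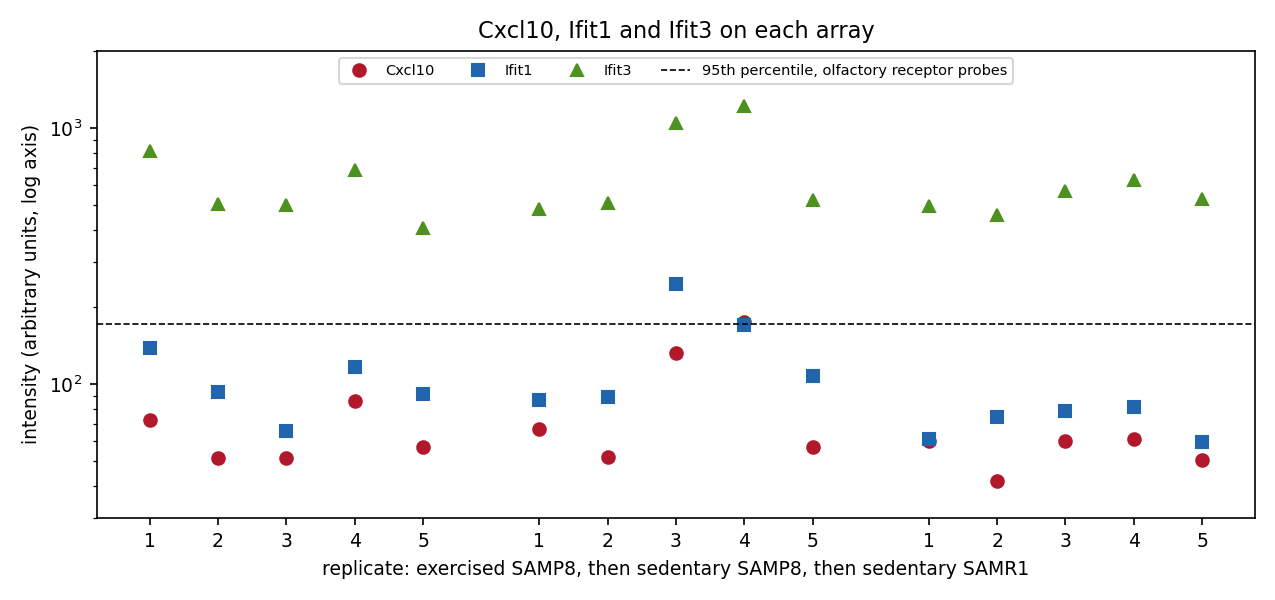
Intensity (arbitrary units, log axis) of Cxcl10, Ifit1 and Ifit3 on each of the 15 arrays, by replicate number within exercised SAMP8, sedentary SAMP8 and sedentary SAMR1, with the background limit of 171.6 dashed. All 3 genes are highest on sedentary SAMP8 replicates 3 and 4, where Cxcl10 has 132 and 174.

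Markers of other cells were also high on 1 of these arrays, and some lists differed between the groups as a whole. Monocyte and macrophage markers (11 genes) had mean log2 levels of 7.24 to 7.53 in exercised SAMP8, 7.41 to 7.78 in sedentary SAMP8 and 6.88 to 7.38 in SAMR1. For this list every sedentary SAMP8 array lay above every SAMR1 array. Meningeal and fibroblast markers (13 genes) had 10.02 to 11.10 in exercised SAMP8, 10.39 to 11.52 in sedentary SAMP8 and 9.37 to 10.75 in SAMR1. Of the sedentary SAMP8 arrays only replicate 5 (10.39) lay inside the SAMR1 range of that list. Both lists were highest on sedentary SAMP8 replicate 3, as was the neutrophil list at 6.44, while on replicate 4 they were 7.49, 10.96 and 5.91. Of the 5 neutrophil genes, 0 lay above the background limit on at least 8 arrays. Not every list was high on replicate 3. The lymphocyte list was lowest of its group there, at 6.42, and the choroid plexus list, at 8.75, lay inside its group's range of 7.59 to 9.89. Of these lists, F13a1, a macrophage-associated coagulation factor, was higher in sedentary SAMP8 than in SAMR1 (log2 difference 0.89 ± 0.16, adjusted p = 0.00401, near background on all arrays), as were the meningeal genes Col1a1, Col1a2, Col3a1 and Aldh1a2. The other 9 of the 13 meningeal genes did not pass. Over all 13 the median log2 difference was 0.92 in sedentary SAMP8 minus SAMR1 and -0.65 in exercised minus sedentary SAMP8. The medians were 0.44 and -0.17 for the monocyte and macrophage list and -0.79 and -0.14 for the choroid plexus list. Those of all genes were 0.0029 and 0.011. The call for Aldh1a2 was lost under 17 of 27 alternatives, with adjusted p up to 0.128, and that for Col1a2 under 8 of 27, with adjusted p up to 0.0868. The part of these cells in the Cxcl10 values was not tested.

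Cxcl12, the constitutive chemokine, was expressed on every array without a difference between groups that passed. Its brighter feature had 1750, 1633, 1772, 1550 and 1385 in exercised SAMP8, against 1589, 1385, 1280, 1502 and 1863 in sedentary SAMP8 and 1348, 1583, 1972, 1656 and 2658 in SAMR1. The groups overlapped, and the highest value was on SAMR1 replicate 5. On that array the meningeal marker mean was the lowest of the 15 arrays (9.37) and the hippocampal neuron marker mean the highest (13.24). The part of these cells in the Cxcl12 values was not tested. The log2 difference was 0.09 ± 0.15 for exercised minus sedentary SAMP8 (95% interval -0.23 to 0.42, adjusted p = 1), -0.25 ± 0.15 for sedentary SAMP8 minus SAMR1 (-0.57 to 0.08, adjusted p = 0.626) and -0.15 ± 0.15 for exercised SAMP8 minus SAMR1 (-0.48 to 0.17, adjusted p = 0.71). Without SAMR1 replicate 5 the differences from SAMR1 were -0.10 in sedentary SAMP8 (adjusted p = 0.822) and -0.012 in exercised SAMP8 (adjusted p = 0.978).

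The second Cxcl12 feature, annotated to another transcript record, had 286, 288, 281, 325 and 440 in exercised SAMP8, against 354, 366, 414, 391 and 248 in sedentary SAMP8 and 323, 352, 330, 457 and 283 in SAMR1. Its groups overlapped too. For it the log2 differences were -0.13 ± 0.16, 0.02 ± 0.16 and -0.11 ± 0.16, so that the features disagreed in sign in the first 2 comparisons. The 3 genes whose levels followed the brighter feature most closely over the 15 arrays were Sstr4, a somatostatin receptor, Adam23, a neuronal surface protein, and Adcy5, an adenylyl cyclase, each at Pearson r = 0.82. Without SAMR1 replicates 3 and 5, the farthest from the median, r was 0.59, 0.56 and 0.57 in that order.

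The wider chemokine family was read for comparison. Of 17 other CC ligands 14 were measured, and in sedentary SAMP8 minus SAMR1 2 were higher and 3 lower, against 1.46% and 1.16% of all genes. The counts were the same in exercised SAMP8 minus SAMR1, against 1.75% and 1.85% of all genes, and 0 were called in exercised minus sedentary SAMP8. The higher ones were Ccl19, which attracts T cells and dendritic cells (log2 difference 5.61 ± 0.25 in sedentary SAMP8 minus SAMR1), and Ccl27a, a chemokine known from skin (1.30 ± 0.09). In the mouse these belong to a cluster with near-identical copies, so a probe may read more than 1 gene. The lower ones were Ccl6, Ccl9 and Ccl17, a ligand of Ccr4. Ccl17 had 142, 100, 134, 170 and 86.8 in exercised SAMP8, against 95.2, 98.7, 127, 97.0 and 108 in sedentary SAMP8 and 193, 178, 251, 194 and 223 in SAMR1. It was above the background limit on all SAMR1 arrays and on no SAMP8 array, at least 1.2-fold lower in SAMP8 of either group (means of log2 values, with dim values raised to the limit; adjusted p = 0.00132 in sedentary and 0.0128 in exercised SAMP8). With the replicate block in a fit of the 2 groups alone, the exercised SAMP8 minus SAMR1 adjusted p was 0.0717 for Ccl17 and 0.0637 for Ccl9.

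Among 8 other CXC and CX3C ligands measured none was called in any comparison. In sedentary SAMP8 minus SAMR1 the lowest adjusted p among them was 0.268 for Pf4 (limma, log2 difference 0.53 ± 0.20), which was above the limit on 1 array. Cxcl14 and Cx3cl1, the neuronal ligand of the microglial receptor Cx3cr1, were the 2 above the limit on at least 8 arrays. None of 19 chemokine receptors was called, and Cxcr3 and Cxcr4 were not among the 5 above the limit on at least 8 arrays, which were Ccr6, Ackr1, Ackr2, Ackr3 and Cx3cr1. Ackr3, a scavenging receptor of Cxcl12, had a log2 difference of 0.24 ± 0.12 in sedentary SAMP8 minus SAMR1 (adjusted p = 0.463). None of 16 cytokine receptors and signal chains was called, and the lowest adjusted p in that comparison was 0.354 for Osmr, a receptor chain of oncostatin M (0.34 ± 0.14). The median log2 difference in sedentary SAMP8 minus SAMR1 was -0.11 for the chemokine receptors and 0.07 for the cytokine receptors, against 0.0029 for all genes.

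Of 24 other cytokines measured, 8 lay above the limit on at least 8 arrays, among them Il16, Il33, Il34, Csf1 and Tgfb2. Il33, an IL-1 family alarmin that glia make, had 1584, 1284, 1371, 1328 and 1232 in exercised SAMP8, against 1737, 1466, 1207, 1541 and 1258 in sedentary SAMP8 and 2174, 1805, 1521, 2004 and 1761 in SAMR1. Exercised SAMP8 and SAMR1 overlapped in 1 array of each. It was lower in exercised SAMP8 than in SAMR1 by a log2 difference of -0.44 ± 0.12, and Csf1, a growth factor of microglia, by -0.33 ± 0.09 (limma, adjusted p = 0.0464 for both). Both calls were lost under most alternatives, with adjusted p up to 0.132 for Il33 and 0.171 for Csf1. For sedentary SAMP8 minus SAMR1 the Il33 difference of -0.36 ± 0.12 had an adjusted p of 0.147. With the replicate number as a block it was 0.0251 over all 15 arrays and 0.0196 in a fit of the 2 groups alone. For exercised minus sedentary SAMP8 0 of the 24 were called.

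Among genes downstream of these cytokines, 1 inflammatory target passed and no gene of NF-kappaB signalling did. None of 19 genes of NF-kappaB signalling, 13 of them above the limit on at least 8 arrays, was called in any comparison. In sedentary SAMP8 minus SAMR1 the lowest adjusted p among them was 0.252 for Nfkbie, an inhibitor of NF-kappaB (log2 difference -0.35 ± 0.13). Of 13 inflammatory target genes 1 was called, Serpina3n, an acute-phase protease inhibitor of reactive astrocytes. It had 1664, 1727, 2112, 2661 and 1799 in exercised SAMP8, against 1304, 1623, 1603, 1371 and 1942 in sedentary SAMP8 and 824, 1125, 1055, 980 and 840 in SAMR1. Every SAMP8 array exceeded every SAMR1 array, with log2 differences from SAMR1 of 1.03 ± 0.14 in exercised SAMP8 (adjusted p = 0.000237) and 0.70 ± 0.14 in sedentary SAMP8 (adjusted p = 0.00937). In exercised minus sedentary SAMP8 the difference was 0.34 ± 0.14 (adjusted p = 1).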

How the data were processed

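The authors deposited 1 table of intensity values, linear and nearly identical in distribution on the 15 arrays, as the values show. Cy3-labelled cRNA was made from total RNA, per the labels' protocols. The submitters' processing notes name limma without a version. The sources used here do not give the scanner, the feature extraction, the background step or the filter that left 10741 of 45220 rows (23.8%) empty, so it is unknown whether background was subtracted. With 1 colour a value has no direction to settle. Genes were named through the platform's annotation, in which 27968 features with values had 1 symbol, 38 had several and 6473 were not listed.

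Groups came from the labels. Each gene was represented by its feature of highest mean intensity. Values below an intensity of 39.17 (the 5th percentile) were set to it, and log2 was taken. Tests used limma's linear model with empirical Bayes variances (version 3.58.1, R 4.3.3), two-sided, with 1 term per group, Benjamini-Hochberg adjustment over 16401 genes and calls at an adjusted p under 0.05. The code was tested on simulated data. Precision is limited by having 5 arrays a group, and the median standard error of a difference was 0.118 over all genes.

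The 10 genes and the gene lists were chosen with earlier results of these data known. Named were the 10 genes, of each list every called gene, otherwise up to 3 with the lowest p in sedentary SAMP8 minus SAMR1, and, for a gene above the background limit on at least 8 arrays, the 3 genes with the highest Pearson r to it. Some genes were named outside this rule. They were named for lying above the background limit (such as Cxcl14 and Cx3cl1), for their function (Casp1), for their place on chromosome 11, or by another comparison (Slc4a4). Ifit1 and Ifit3 were named after their values were seen.

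The shared replicate numbers were checked for pairing. Deviations from group means correlated by 0.23 to 0.52 between same-numbered sedentary SAMP8 and SAMR1 arrays (5 of 5 over 0.1), so these numbers were taken to pair them. For the exercised arrays the range was -0.10 to 0.35 against sedentary SAMP8 and 0.01 to 0.37 against SAMR1. There the numbers were not taken as pairs. The main fit held no block, so its p-values for sedentary SAMP8 minus SAMR1 leave the pairing out. With the block in a fit of these 2 groups alone, 648 genes were called in place of 431. Alternatives were other floors, the mean of all features, scaling to the 75th percentile, leaving out the dimmest 40% of genes, a variance trend with a robust prior, array weights, fits of 2 groups, a replicate block, and leaving out each array. The feature mean together with the block was added after seeing the data.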

Additional observations from a re-analysis of the deposited data

Results flagged for a closer look

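One result stood apart. Il1b in exercised SAMP8 replicate 2 had an intensity of 40.03, against 58.4 to 67.0 on the other 4 arrays of its group, a gap of 0.732 of the group's range on the log2 scale, where 0.71 is the critical value for 5 samples. Of 30 groups checked (10 genes in 3 groups) it was the only one, and chance flags about 1 in 20. The value is near background, and the mean over the 10 Il1b features was also lowest of the 15 arrays there, at 42.4.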

How the results depend on the processing

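None of the 10 genes changed its call under any alternative except Il18 in exercised SAMP8 minus SAMR1. It was called when the floor was raised to the lower background limit, making 1 gene called, though every Il18 value lay above that floor. A fit with the replicate number as a block changed no call of the 10 genes in any comparison. With that block in a fit of the 2 compared groups, 648 genes were called in sedentary SAMP8 minus SAMR1 (main 431, 336 to 472 when leaving out 1 array). In exercised SAMP8 minus SAMR1 it gave 323, and 299 with the mean of all features as well (main 590, 406 to 598 leaving out 1 array). In exercised minus sedentary SAMP8 leaving out 1 array gave 0 to 1 called genes, the 1 without exercised replicate 3. The lower background limit put 60% of the arrays of Il1b and Ccl2, 66.7% of those of Cxcl10 and 0% of those of Ccl5 under it, and 3 genes above it on at least 8 arrays in place of 2. The 8 dim genes had no value without the dimmest 40% of genes.

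Signs of differences were not stable for most dim genes, nor for Cxcl12 and Pycard, which lay above the limit, and the cause was not tested. In exercised minus sedentary SAMP8 Tnf became 0.024 with the higher floor, and with the mean of all features, with or without the block, Tnf became 0.037, Ccl2 -0.17 and Cxcl12 -0.019. In sedentary SAMP8 minus SAMR1 the mean of all features gave 0.10 for Ccl2 and 0.057 for Ccl5, and array weights 0.0018 for Ccl5. In exercised SAMP8 minus SAMR1 Ccl3 became -0.18 without a floor and -0.0016 with array weights, Tnf 0.024 with the higher floor, and Ccl2 -0.067 with the mean of all features and -0.049 with array weights. Leaving out 1 array, the ranges that crossed 0 were, in exercised minus sedentary SAMP8, -0.19 to 0.016 for Tnf, -0.044 to 0.13 for Ccl2, -0.060 to 0.14 for Il1a, -0.17 to 0.052 for Ccl3 and -0.026 to 0.13 for Pycard. In sedentary SAMP8 minus SAMR1 they were -0.098 to 0.040 for Ccl5 and -0.047 to 0.19 for Ccl3. In exercised SAMP8 minus SAMR1 they were -0.090 to 0.11 for Ccl3, -0.12 to 0.018 for Il6, -0.099 to 0.071 for Ccl2 and -0.13 to 0.062 for Il1b. Signal over background limits what can be said of 8 of the 10 genes.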
